A study of Mus musculus with 39 samples.

Results

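Microglia sorted from the striatum of adult male mice were compared by prenatal exposure within the arm of the study labelled PLX, in animals that had received saline. The prenatal terms are CON (control) and MIA (maternal immune activation, an immune challenge of the mother during pregnancy), and the agent used for it is not given in the labels. The members were 7 of the 39 libraries of the series: MIA_PLX_SAL replicates 2 to 4 (n = 3, called MIA here) and CON_PLX_SAL replicates 1 to 4 (n = 4, called CON). MIA_PLX_SAL replicate 1 was left out because its title says exclude, with no reason given. All 7 libraries share the PLX arm, the saline injection, male sex and an age of 8 to 10 weeks, and cells were taken 18 hours after the injection. The cells were live, CD11b positive, CD45 low and P2RY12 positive, so cells that had lost P2RY12 from their surface were outside the gate. The labels do not define PLX or give its timing, and they do not say whether a replicate is 1 animal or a pool. The p-values therefore measure the spread between these libraries, which may be technical.

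Microglia are the resident macrophages of the brain and depend on signalling through the colony stimulating factor 1 receptor. Names that begin with PLX are commonly given to inhibitors of that receptor, which remove most microglia while they are given and let the population regrow afterwards. Resting microglia are known by a set of homeostatic genes, among them P2ry12, Tmem119 and Cx3cr1, and they take on other profiles on contact with bacterial products, dying cells or interferon. The groups of genes described here are the protein subunits of the ribosome, which makes all cellular proteins, the class I major histocompatibility complex (MHC), which displays peptides to T cells, the respiratory chain, and the genes of microglial identity and inflammation.

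The gate genes were high in every library and did not pass the test between groups, although the groups did not overlap for P2ry12. P2ry12, a purinergic receptor, stood at 2515 to 2800 CPM (counts relative to the library total after TMM scaling) in CON and 2845 to 3115 in MIA, Itgam, which encodes CD11b, at 1342 to 1603 and 1493 to 1592, and Ptprc, which encodes CD45, at 580.5 to 600.1 and 515.8 to 647.8. Totals ran from 2640224 to 4538522 counts per library, with means of 3046960 ± 443923 in MIA (SD, n = 3) and 3877770 ± 770159 in CON (SD, n = 4; exact permutation p = 0.1714, two-sided). Of the T cell and cytotoxic cell markers, Cd3d, Cd3g, Gzma, Nkg7, Trac and Trbc2 were at 0 in all 7 libraries. Cd4 ran from 0.607 to 3.36 CPM, and Cd8a, Cd3e and Klrb1c reached at most 0.704, 0.303 and 0.391 CPM. CON replicate 2 carried 125 CPM of summed neutrophil markers and 139 CPM of erythroid markers, against 0.242 to 9.53 and 1.29 to 22.5 in the other 6. Ttr, a gene abundant in the choroid plexus, stood at 471 CPM in MIA replicate 3 and at 0 to 4.08 in the rest. On the first principal component, with 30.09% of the variance, the MIA libraries lay between 2.36 and 18.9 and the CON libraries between -9.89 and -5.19, and MIA replicate 2 lay at the far end.

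Prenatal MIA in the PLX arm went with a small and mostly upward difference. Of 11962 genes tested by edgeR's quasi-likelihood test, 124 were higher in MIA (1.04%) and 12 lower (0.100%), 136 in all (1.14%), at a Benjamini-Hochberg adjusted p under 0.05, which is what called means here. Of the 124 higher genes, 119 rose by less than 2-fold, and ribosomal protein genes made up 59 of them. The 5 that rose by more were Adck5, Uqcrq, Romo1, H2-Q6 and the predicted gene Gm49482. At an unadjusted p under 0.05, 777 genes were higher (6.50%) and 584 lower (4.88%). Every MIA library lay above every CON library for 734 genes (6.14%) and below for 627 (5.24%), and the 136 called genes were all of this kind.

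The number of calls differed between fits. The 7 libraries had a common dispersion of 0.0138, against 0.0191 over all 15 saline libraries, where 13 genes were called higher and 1 lower. In a fit of all 37 libraries 0 genes were called, with 164 at an unadjusted p under 0.05. DESeq2 on the 7 libraries called 142 higher and 12 lower, and limma voom with quality weights 90 and 7. Leaving out 1 library gave 80 calls without CON replicate 1, 90 without CON replicate 4, 87 without MIA replicate 2 and 208 without MIA replicate 3, and 60 of the 136 genes were called in all 7 such fits.

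**Figure D1:**
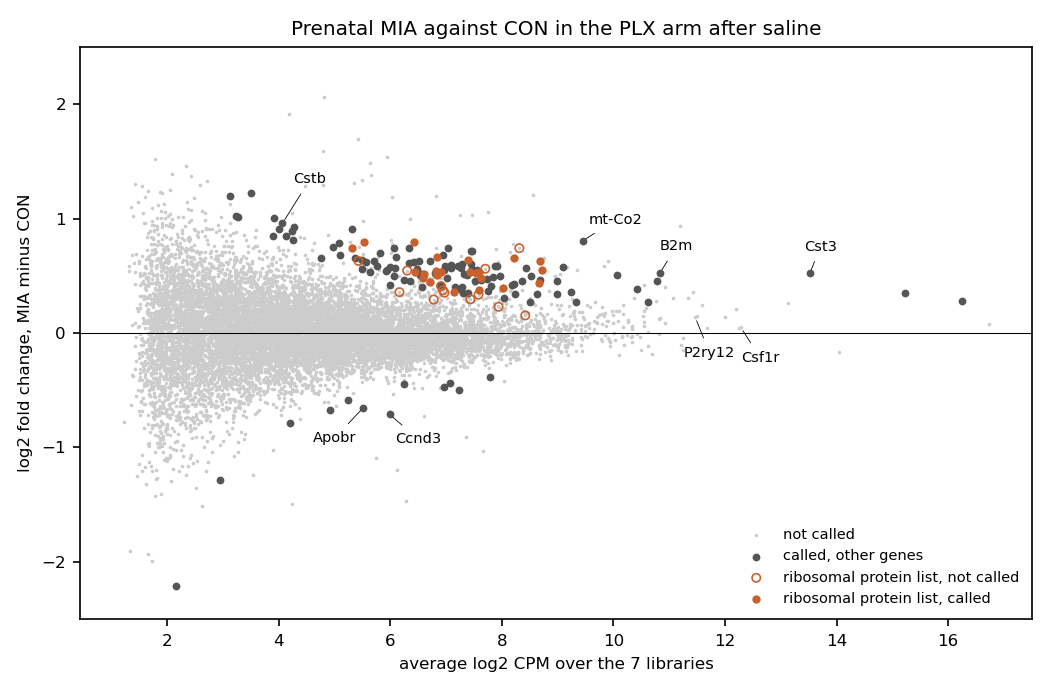
Log2 fold change (MIA minus CON) against the average log2 CPM of each of the 11962 genes tested. Dark points are called genes, orange points the 36 ribosomal protein genes of the list (filled where called); 7 genes lie outside the plotted range of -2.5 to 2.5. Nearly all called genes lie above 0, and the ribosomal protein genes form a band between 0.15 and 0.80.

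Ribosomal protein genes were higher in MIA as a group. All 36 genes of a list of cytosolic ribosomal proteins were tested. Of these, 23 were called higher (against 1.04% of all genes tested) and 0 lower. The median log2 fold change was 0.52 against -0.00243 over all genes. All 36 had an unadjusted p under 0.05 and 33 had every MIA library above every CON library. Over the 80 genes with a ribosomal protein symbol, 59 were called higher and all 80 had a positive log2 fold change.

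Rps18, a protein of the small subunit, stood at 56.1, 70.0, 62.8 and 73.2 CPM in CON replicates 1 to 4 and at 111, 112 and 118 CPM in MIA replicates 2 to 4. The groups did not overlap, and the lowest MIA library was well above the highest CON library. Its log2 fold change was 0.80 ± 0.10 (SE), with an adjusted p of 0.000175 by edgeR. Rpl19, a protein of the large subunit, stood at 125, 138, 146 and 131 CPM in CON and at 234, 189 and 207 in MIA. MIA replicate 2 was the highest of the 7, and the log2 fold change was 0.64 ± 0.086 (adjusted p = 0.000337). Rpl13, Rpl10a, Rpl10, Rps13 and Fau, whose product is cleaved into a ubiquitin-like part and a small-subunit protein, followed with log2 fold changes of 0.63, 0.60, 0.55, 0.68 and 0.60. All of these were called in each of the 7 fits that left out 1 library. Rpl3 had the smallest difference of the list, 0.15, with 311 to 346 CPM in CON and 336 to 393 in MIA, and was not called.

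The share of all counts taken by the 36 genes was 0.472%, 0.586%, 0.559% and 0.540% in CON replicates 1 to 4 and 0.744%, 0.686% and 0.709% in MIA replicates 2 to 4. The groups did not overlap, and the exact permutation p of 0.05714 (two-sided) is the smallest that 3 against 4 libraries can give. The same share was 0.437% to 0.661% in the 4 CON_CON_SAL libraries and 0.468% to 0.591% in the 4 MIA_CON_SAL libraries, so the MIA libraries of the PLX arm were the highest of the 15. Beside it, the share of Malat1, a nuclear long noncoding RNA, was 1.51 ± 0.0902% in MIA (SD, n = 3) and 1.79 ± 0.142% in CON (SD, n = 4; exact permutation p = 0.05714), with no overlap. Mitochondrial ribosomal RNA took 12.5 ± 1.12% and 10.7 ± 0.783% (exact permutation p = 0.1143). The 6 library measures compared had adjusted p of 0.1714 or more by exact permutation, and the part of the Malat1 and mitochondrial shares in the ribosomal difference was not tested. In the list, 14 genes were called without CON replicate 4 and 15 without CON replicate 1 or MIA replicate 2. In these libraries 62.3% of the nonzero values of the listed ribosomal protein genes were not whole numbers, against 15% over all genes. Some of their reads were therefore divided between genes, and the level of a single gene is uncertain. Ribosomal protein genes have many processed copies in the genome, and whether reads were divided with these was not tested.

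**Figure D2:**
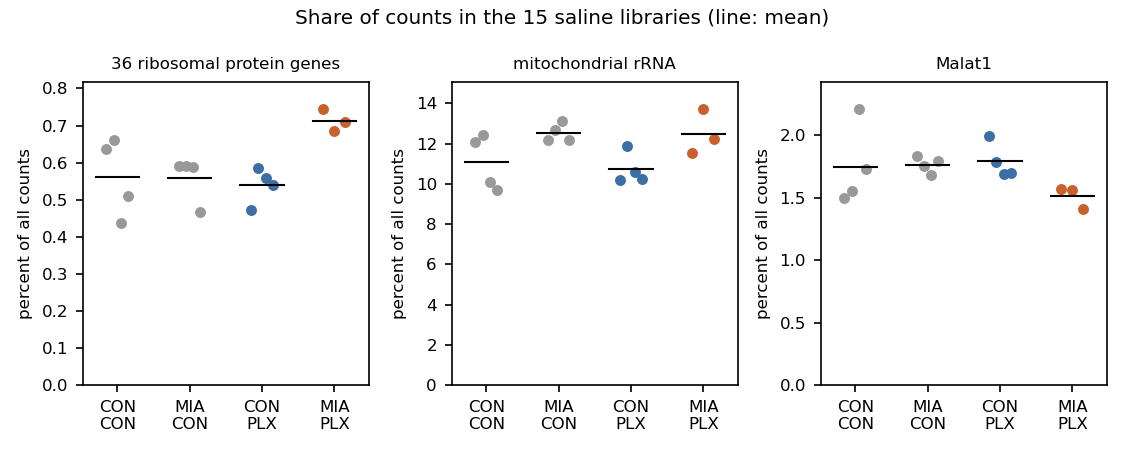
Share of all counts (percent) taken by the 36 ribosomal protein genes, by mitochondrial ribosomal RNA and by Malat1 in each of the 15 saline libraries, by prenatal term (upper label) and arm (lower label). Points are libraries and lines are means. The 3 MIA libraries of the PLX arm have the highest ribosomal protein shares (0.686% to 0.744%) and lie below the PLX controls for Malat1.

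Messenger RNAs of ribosomal proteins are known to begin with a run of pyrimidines, through which the mTOR kinase controls their translation. The start sites of the 6 genes of the list with the smallest p among those in the RefSeq promoter table (GRCm38.p6) were read for this feature, from 40 bases before to 30 bases from the start. The run was found in Rps18, Rpl19 and Rps23, which are shown with Rpl10 as one without it, and not in Rpl10, Rpl13 or Rps4x. Capitals mark a run of at least 5 C or T bases that begins with C within 5 bases of the start, read on the gene's strand only. The regions are chr17:33955636-33955705 on the minus strand for Rps18, chr11:98026670-98026739 on the plus strand for Rpl19, chr13:90923082-90923151 on the plus strand for Rps23 and chrX:74270776-74270845 on the plus strand for Rpl10.
Rps18: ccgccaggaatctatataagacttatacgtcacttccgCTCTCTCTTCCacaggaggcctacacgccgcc
Rpl19: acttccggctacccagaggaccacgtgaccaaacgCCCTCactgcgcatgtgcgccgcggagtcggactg
Rps23: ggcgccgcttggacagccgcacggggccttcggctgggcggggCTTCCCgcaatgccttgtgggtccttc
Rpl10: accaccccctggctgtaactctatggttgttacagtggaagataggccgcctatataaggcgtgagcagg
Rps18 has a run of 11 bases that starts 2 bases before the annotated start. Of the 36 listed genes, 25 matched an entry in the promoter table, and 11 of these hold such a run (44%), against 21.2% of all 27025 genes of the table and 24.2% of the tested genes in it. A gene with several starts in the table, such as Rpl19, was counted where any of them held the run. The run was found by its letters alone and describes these windows.

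The light chain gene of MHC class I and both classical heavy chain genes were higher in MIA. Of 15 genes for class I molecules and peptide loading, these 3 were called higher and 0 lower. At an unadjusted p under 0.05, 6 were higher, and the median log2 fold change was 0.27. B2m, the light chain shared by all class I molecules, had the smallest p of all genes. Its level was 1364, 1568, 1585 and 1618 CPM in CON replicates 1 to 4 and 2192, 2193 and 2222 in MIA replicates 2 to 4. The MIA libraries were nearly equal to each other and all above CON, with a log2 fold change of 0.52 ± 0.063 and an adjusted p of 0.000175. The heavy chain gene H2-K1 stood at 165, 175, 202 and 188 CPM in CON and at 247, 270 and 244 in MIA (0.47 ± 0.081, adjusted p = 0.00184). H2-D1, the other classical heavy chain, stood at 120, 147, 162 and 157 CPM in CON and at 218, 193 and 237 in MIA (0.56 ± 0.097, adjusted p = 0.003). The groups did not overlap for either. All 3 genes were called in each fit that left out 1 library and with the trend on annotated exon length removed. H2-Q6, a class I gene with close relatives whose reads were partly divided, rose by 1.02, and its call was lost in 6 of the 7 fits. The peptide transporter gene Tap1 (0.00) was not called, nor were the class II genes: 0 of 6 passed, with a median of 0.36 and Cd74, the invariant chain, at 9.12 to 12.9 CPM in CON and 13.3 to 19.2 in MIA.

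Promoters of B2m, H2-K1, H2-D1, Cst3 and the chemokine genes Cxcl10 and Ccl12, all called higher, were searched for an interferon response sequence. Those of B2m and Cxcl10 are shown because only their windows held a match. Both of these genes are known to respond to interferon. Capitals mark GAAANNGAAA, a form of the interferon-stimulated response element, searched on both strands from 250 bases before to 50 bases after the start. The windows are chr2:122147518-122147587 on the plus strand for B2m and chr5:92349063-92349132 on the minus strand for Cxcl10 (RefSeq, GRCm38.p6), where the match begins at -139 and -213 relative to the start.
B2m: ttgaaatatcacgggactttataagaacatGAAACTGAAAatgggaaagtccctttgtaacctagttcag
Cxcl10: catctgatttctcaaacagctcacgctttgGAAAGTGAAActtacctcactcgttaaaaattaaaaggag
The letters occur in 3.99% of all genes of the table and in 3.74% of the tested genes in it. A gene was counted where any of its starts held them. Of the 88 genes called higher with a promoter, 10 held them (11.4%). The same was so for 3 of 12 of the MHC class I list (25%) and 5 of 25 of the ribosomal protein list (20%). No match was found for H2-K1, H2-D1, Ccl12 or Cst3, which says only that these letters are not in those windows.

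Interferon-stimulated genes as a list did not pass. Of 24 tested, 0 were called, 3 were higher at an unadjusted p under 0.05 and 0 lower, and the median was 0.11. Ifi204, an interferon-inducible DNA sensor, came nearest, at 7.39 to 11.9 CPM in CON and 13.3 to 19.1 in MIA (0.76, adjusted p = 0.148), and Usp18, a brake on interferon signalling, had the largest p of the list, with a log2 fold change of 0.02. Outside the list, Ifi27 (0.75, adjusted p = 0.00731) and Ly6e (0.36, adjusted p = 0.00762), both known to be induced by interferon and named here after their values were seen, were called higher, each in 6 of the 7 fits without 1 library. With the length trend removed the adjusted p was 0.056 for Ifi27 and 0.0202 for Ly6e. Both chemokine genes that were called are also interferon targets. Cxcl10 stood at 9.28, 10.6, 15.03 and 11.3 CPM in CON and at 18.8, 18.8 and 27.2 in MIA. The groups did not overlap, and the log2 fold change was 0.91 ± 0.21 (adjusted p = 0.0302). Ccl12, a monocyte attractant, stood at 12.1, 10.8, 15.3 and 18.3 CPM in CON and at 26.7, 23.5 and 28.9 in MIA (0.93 ± 0.19, adjusted p = 0.0105). These were 2 of 9 chemokine genes tested, with a median of 0.53 over the list, or 0.16 without MIA replicate 2. The Cxcl10 call was lost without CON replicate 1, 2 or 4 or MIA replicate 4, and the Ccl12 call without CON replicate 1 or MIA replicate 4. Neither was called with the length trend removed (adjusted p of 0.0769 and 0.0802).

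**Figure D3:**
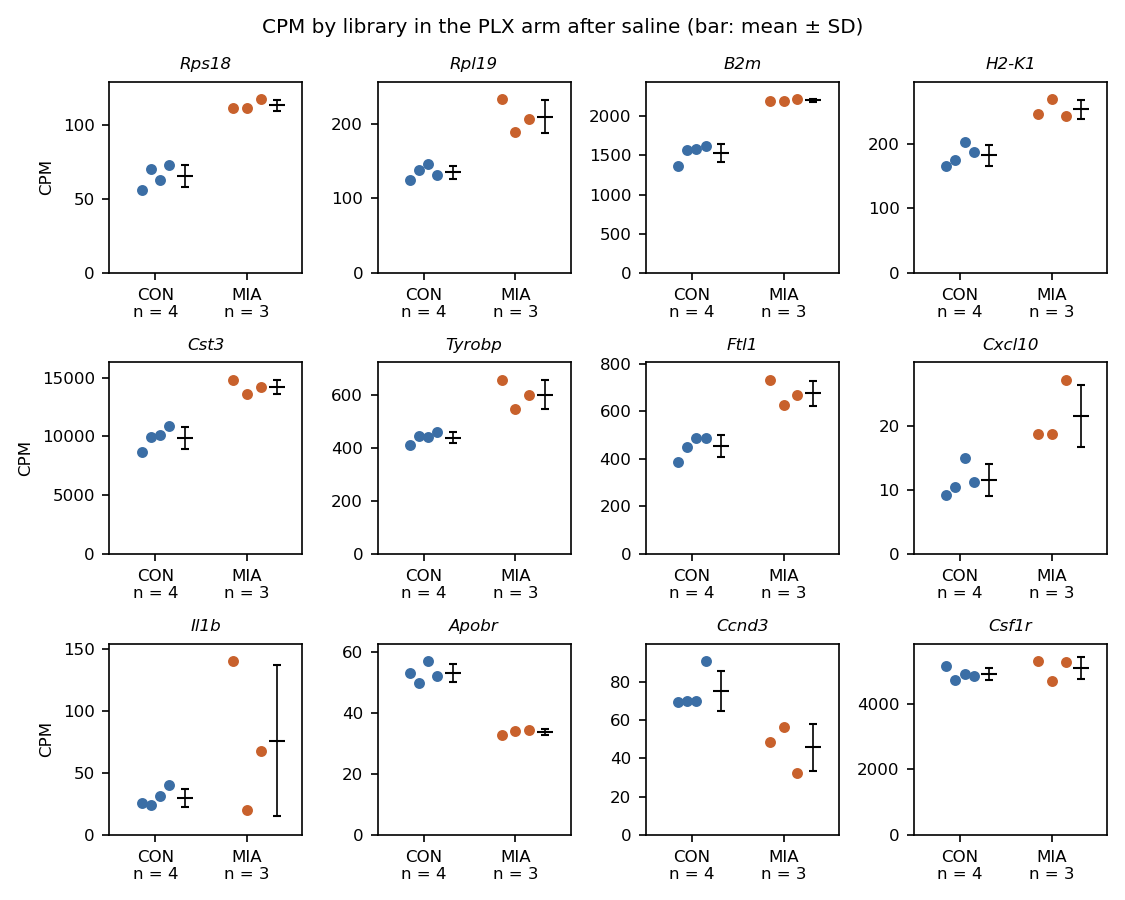
CPM of 12 genes in each library of the PLX arm after saline (points), with mean ± SD per group (bars). The groups do not overlap for Rps18, Rpl19, B2m, H2-K1, Cst3, Tyrobp, Ftl1, Cxcl10, Apobr and Ccnd3, and overlap for Il1b and Csf1r.

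Most homeostatic microglia genes did not pass the test. At an unadjusted p under 0.05, 7 of 19 were higher and 2 lower. After adjustment 1 was called higher and 0 lower, and the median was 0.11. The exception was Cst3, the protease inhibitor cystatin C and one of the most abundant microglial transcripts, at 8638, 9991, 10093 and 10888 CPM in CON and 14810, 13612 and 14205 in MIA. All MIA libraries were above all CON libraries, by 0.52 ± 0.065 on the log2 scale (adjusted p = 0.000175), and the call was kept in all 7 fits without 1 library. Tmem119 (0.11), Cx3cr1, the fractalkine receptor (0.09), and Fcrls (0.03) were not called. Of 15 genes of colony stimulating factor receptor signalling, 1 was called higher, Tyrobp. Csf1r, the receptor gene itself, stood at 4726 to 5140 CPM in CON and 4696 to 5298 in MIA, with overlap (0.05, adjusted p = 0.811). Without MIA replicate 3, 3 genes of each of these lists were called.

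Genes of phagocytosis and of the disease-associated microglia profile were higher in part. Tyrobp, the adaptor of the receptor Trem2, stood at 412, 444, 443 and 460 CPM in CON and at 658, 548 and 601 in MIA (0.46 ± 0.0715, adjusted p = 0.00083). It was called in all 7 fits without 1 library and missed the threshold with the length trend removed (adjusted p = 0.0677). The ferritin heavy chain gene Fth1 (0.34), the lysosomal protein gene Cd68 (0.34) and the lysozyme gene Lyz2 (0.48) were also called higher. With Tyrobp these made 4 of 19 disease-associated genes called higher, with 0 called lower and a median of 0.25. At an unadjusted p under 0.05, 9 were higher and 1 lower, and the lowest log2 fold change of the list was -1.04. By adjusted p, 2 were called without CON replicate 1 or 4 or MIA replicate 2. The Cd68 call was lost in 5 of the 7 fits without 1 library. With the length trend removed 1 of the 19 was called, Fth1. Among 22 complement and phagocytic receptor genes the called ones were Tyrobp and C1qb, a subunit of complement C1q, at 1348 to 1611 CPM in CON and 1859 to 2422 in MIA (0.45). With the length trend removed 0 of these 22 were called (adjusted p = 0.062 for C1qb). C1qb was not called without MIA replicate 4, and 5 of the 22 were called without MIA replicate 3. Ftl1, the ferritin light chain, stood at 389, 452, 488 and 487 CPM in CON and at 732, 627 and 669 in MIA (0.58 ± 0.079, adjusted p = 0.000376), with no overlap and in all 7 fits.

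In the list of LPS sensing genes and their brakes, 2 of 19 were called higher, with a median of 0.13. Both encode parts of the receptor complex for bacterial lipopolysaccharide. Ly96, also called MD-2, stood at 12.7, 12.5, 13.6 and 19 CPM in CON and at 27.3, 23.9 and 23.5 in MIA (0.81 ± 0.19, adjusted p = 0.0267). Cd14 stood at 132, 126, 145 and 143 CPM in CON and at 204, 157 and 179 in MIA (0.40 ± 0.090, adjusted p = 0.02). The receptor gene Tlr4 was not called, at 122 to 153 CPM and 119 to 151 CPM. Both calls were lost without CON replicate 1, CON replicate 2, MIA replicate 2 or MIA replicate 4, and both with the length trend removed. The Ly96 call was also lost without CON replicate 3.

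A few genes of energy metabolism were higher in MIA, and most did not pass. Of 42 nuclear genes of the respiratory chain and ATP synthase, 5 were called higher and 0 lower. At an unadjusted p under 0.05, 19 were higher, and the median was 0.41. The called genes were the cytochrome oxidase subunits Cox6a1, Cox6b1 and Cox4i1 and the complex III subunits Uqcrq and Uqcr10, of which Cox4i1 and Uqcr10 were named after their values were seen. Cox6a1 stood at 33.7, 39.6, 38.5 and 41.5 CPM in CON and at 58.6, 58.7 and 59.2 in MIA (0.62 ± 0.12, adjusted p = 0.0045), without overlap. With the length trend removed 0 of the 42 were called and the median was 0.28. Without CON replicate 1 or MIA replicate 2, 1 was called, and 2 without CON replicate 4 or MIA replicate 4 and 3 without CON replicate 2 or 3.

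Of 13 proteins encoded by the mitochondrial genome, 3 were called higher and 0 lower, with a median of 0.27. At an unadjusted p under 0.05, 7 were higher and 1 lower, and the lowest log2 fold change of the list was -0.95. mt-Co2, a cytochrome oxidase subunit, stood at 497, 593, 585 and 441 CPM in CON and at 951, 993 and 829 in MIA (0.80 ± 0.097, adjusted p = 0.000644). The groups did not overlap, and the others called were mt-Nd1 (0.38) and mt-Nd3 (0.63), both subunits of complex I. Without CON replicate 2 the number was 6, and none of the 3 was called with the length trend removed (adjusted p of 0.0738 to 0.336). Of 17 glycolysis genes 1 was called higher, Gapdh. It stood at 336, 351, 348 and 375 CPM in CON and at 475, 487 and 492 in MIA (0.46 ± 0.067, adjusted p = 0.000481). The call held in all 7 fits without 1 library and with the length trend removed. Ldha (0.39) and Aldoa (0.32) overlapped between groups and were not called.

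Inflammatory mediators and immediate early genes were highest in MIA replicate 2 and did not pass. The mean log2 CPM of the mediators was 5.94, 5.33 and 5.53 in MIA replicates 2, 3 and 4 and 5.08 to 5.40 in CON. Of 22 targets of the transcription factor NF-kB and inflammatory mediators, 0 were called by edgeR, 3 were higher at an unadjusted p under 0.05, and the median was 0.35, or 0.15 without MIA replicate 2. Il1b, the precursor of interleukin 1 beta, stood at 25.5, 24.0, 31.3 and 40.1 CPM in CON and at 140.5, 20.0 and 68.1 in MIA replicates 2, 3 and 4. MIA replicate 3 was the lowest of the 7 and replicate 2 the highest, so the difference of 1.38 ± 0.64 did not pass (adjusted p = 0.517). The cytokine gene Tnf (0.50) and the chemokine gene Ccl2 (0.53) also overlapped between groups. Of 27 immediate early and dissociation stress genes, which are induced within minutes by handling of tissue as well as by stimuli, 0 were called by edgeR and 5 were higher at an unadjusted p under 0.05. Without MIA replicate 3, 3 were called, and 1 without CON replicate 3. Their median was 0.74, and 0.27 without MIA replicate 2. Their mean log2 CPM was 7.86 in that library and 6.19 to 6.88 in the other 6. The part of this library in the other results is shown only by the values without it given beside them.

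**Figure D4:**
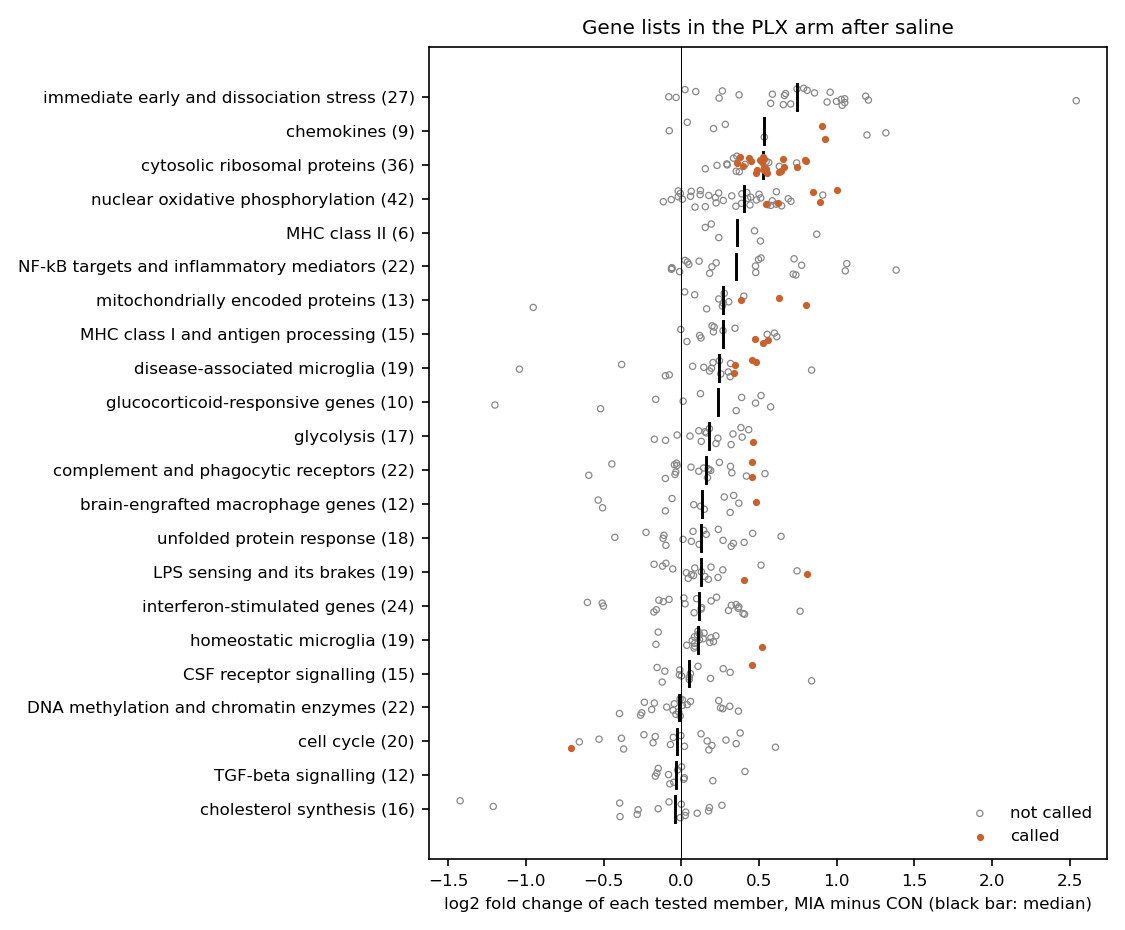
Log2 fold change (MIA minus CON) of every tested member of 22 gene lists, with the number tested in brackets. Orange points are called, open points are not, and the black bar is the median. The ribosomal protein list has 23 called genes and a median of 0.52, the immediate early list has a median of 0.74 with 0 called, and homeostatic genes lie close to 0 apart from Cst3.

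Only 12 genes were lower in MIA, 4 of them predicted genes without a name (Gm9923, Gm43024, Gm47550 and Gm43681). Apobr, a macrophage receptor for lipoproteins that contain apolipoprotein B48, stood at 52.9, 49.9, 57.0 and 52.1 CPM in CON and at 32.8, 34.0 and 34.4 in MIA. The spread within each group was small and the groups lay far apart, with a log2 fold change of -0.65 ± 0.12 (adjusted p = 0.00394), called in all 7 fits without 1 library and with the length trend removed. Ccnd3, the cell cycle regulator cyclin D3, stood at 69.3, 70.0, 70.0 and 90.8 CPM in CON and at 48.5, 56.4 and 32.3 in MIA (-0.71 ± 0.16, adjusted p = 0.0319). It was called in 1 of the 7 fits without 1 library, and it was the only one of 20 cell cycle genes called, with a list median of -0.03. The others included Mlxip, a glucose-responsive transcription factor (-0.47), the cytokine receptor gene Lifr (-0.38), Akap8, a nuclear scaffold protein (-0.43), Rnf169, a ubiquitin ligase of DNA repair (-0.50), and Uchl5, a deubiquitinase of the proteasome (-0.79). Each of these 5 calls was lost in 2 or more fits without 1 library. Lpgat1 (-0.41, adjusted p = 0.0504) and Trim56 (-0.32, adjusted p = 0.069) were below CON in every library and did not pass.

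Genes called higher had short annotated exon lengths. Their median annotated exon length was 1675 bases, or 1550 without ribosomal protein genes, against 4295 over all genes tested and 5180 for the 12 lower genes. This length counts each base found in any annotated exon of a gene, so it can exceed the length of a single messenger RNA. The median log2 fold change fell from 0.17 in 419 genes under 1000 bases to -0.068 in 2054 genes of 8000 bases or more. With ribosomal protein genes left out it was 0.15 under 1000 bases. In genes of 1000 to under 2000 bases without ribosomal proteins the MIA libraries had medians of 0.10 to 0.17 relative to the CON mean, and CON libraries -0.010 to 0.023. In the genes of 8000 bases or more MIA had -0.085 to -0.038 and CON -0.0085 to 0.0094. When a smooth trend on length was removed from each library, 60 genes were called higher and 9 lower, and 67 of these 69 were among the 136. The ribosomal protein list then had 13 called genes and a median of 0.41, and B2m (0.35), Cst3 (0.37), Ftl1 (0.43), Gapdh (0.45), H2-K1 (0.42), H2-D1 (0.49) and Apobr (-0.67) remained called. Genes with long annotated exons changed little or rose: Gapdh (4133 bases) had 0.46 before, and Rps15a (6270 bases) went from 0.51 to 0.55. Rpl23a (847 bases) went from 0.45 to 0.27 and lost its call. The part of messenger RNA length itself was not tested.

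**Figure D5:**
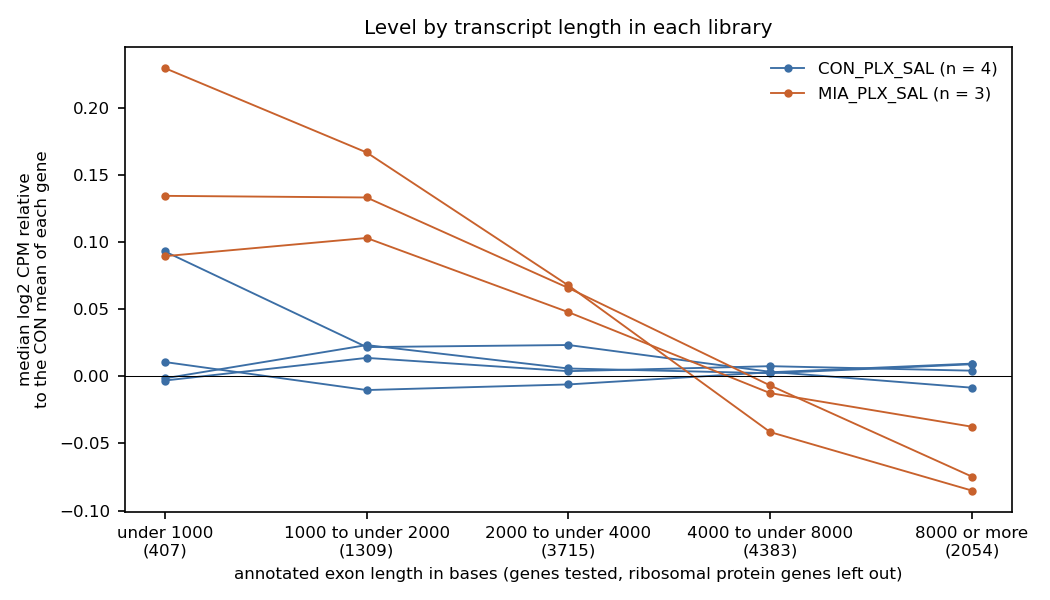
Median log2 CPM of genes relative to their CON mean in each library, by annotated exon length in bases, with ribosomal protein genes left out and the number of genes in brackets. Lines are libraries. In MIA the medians fall from positive values in the classes under 4000 bases to negative values in the classes above. The CON libraries centre on 0 by construction, so they show only the spread between controls. Their largest value is 0.093, in CON replicate 4 under 1000 bases.

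The same prenatal comparison without PLX used 4 MIA_CON_SAL and 4 CON_CON_SAL libraries, in a fit of all 15 saline libraries. There 0 of 12239 genes were called by edgeR, with 415 higher (3.39%) and 359 lower (2.93%) at an unadjusted p under 0.05, while DESeq2 called 4 and voom 1. The ribosomal protein list had a median log2 fold change of 0.08, with 3 of 36 higher at an unadjusted p under 0.05. At that level 6 of 15 MHC class I genes were higher and 0 lower (median 0.20). Of 13 mitochondrially encoded proteins 6 were higher and 0 lower (median 0.41), and of 25 interferon-stimulated genes 7 and 1 (median 0.35). The difference between arms was tested as the interaction of prenatal term and arm, which includes the 7 libraries above. For that interaction 0 genes were called by edgeR, 3 by DESeq2 and 1 by voom, and 351 were higher (2.87%) and 301 lower (2.46%) at an unadjusted p under 0.05. The ribosomal protein list had a median interaction of 0.43 with 12 of 36 higher at an unadjusted p under 0.05 and 0 lower. For the MHC class I, mitochondrially encoded and interferon-stimulated lists the median interaction was 0.12, -0.03 and -0.24. B2m was higher without PLX by 0.27 ± 0.076 and had an interaction of 0.25 ± 0.11, and for Cst3 these values were 0.12 and 0.40. For Apobr they were 0.06 and -0.71, for Btf3, a factor that binds new proteins at the ribosome, -0.07 and 0.71, and for Sult1a1, a sulfotransferase, 0.62 and -1.09. None of these named genes passed in the interaction after adjustment by edgeR.

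After LPS in the PLX arm, 6 MIA_PLX_LPS and 6 CON_PLX_LPS libraries were compared in a fit of the 19 PLX libraries, whose common dispersion was 0.0799. Of 12821 genes 0 were called by edgeR, with 654 higher (5.10%) and 678 lower (5.29%) at an unadjusted p under 0.05, and DESeq2 called 18 higher and 1 lower and voom 0. The ribosomal protein list had a median of -0.09, the respiratory chain list -0.13 and the MHC class I list -0.10. The interaction of prenatal term and injection, which shares the 7 saline libraries, had medians of -0.59, -0.48 and -0.48 for these lists, with 6 of 36, 11 of 42 and 2 of 15 lower at an unadjusted p under 0.05 (2.36% of all genes) and 0 called. 207 genes were higher (1.61%) in it, and edgeR, DESeq2 and voom each called 0. B2m differed by 0.12 ± 0.16 after LPS with an interaction of -0.42 ± 0.27, Rps18 by -0.10 and -0.90, Cxcl10 by -1.08 and -1.99, and Ccl12 by -2.15 and -3.07. The dispersion of this fit was several times that of the 7 saline libraries, and none of these differences passed.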

How the data were processed

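RNA was sequenced from microglia sorted by flow cytometry. Per the labels' protocols, complementary DNA came from a linear amplification of total RNA, unstranded and without depletion of ribosomal RNA, so overlapping genes on opposite strands cannot be told apart. The deposited table gives the authors' estimated counts of 55487 genes in 39 libraries. The submitters' processing notes list RSEM, STAR and DESeq2 but no version or step for any, and the genome build is not given in the sources used here. Symbols and exon lengths come from GENCODE release M21 (55141 identifiers matched) and promoters from RefSeq.

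Values were rounded to whole numbers. Genes were kept by filterByExpr (minimum count 10, total 15) in edgeR 4.0.16 (R 4.3.3), scaled by TMM and tested by a robust quasi-likelihood fit of the 7 libraries, two-sided. Standard errors are the log2 fold change divided by the square root of F. Library measures were compared by exact permutation of 35 relabelings. The labels do not say that a replicate number marks anything shared, and same-numbered libraries did not deviate together, so no block was used. Alternatives were RLE factors, DESeq2 1.42.0, voom in limma 3.58.1, other filters and libraries, a replicate block, and 3 added after seeing the data: removal of the length trend, the 15 saline libraries in one fit, and no robust dispersion. The fit was tested on simulated counts.

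The comparison, the members and the lists were chosen with earlier results of these data known. Named genes included, at an average log2 CPM of at least 4, the 10 higher and 10 lower with the smallest p. The 5 on each side with the smallest p in each interaction had the same limit. With no such limit came the 8 called genes on each side with the largest change and no overlap. So did up to 3 members of each list with the smallest p and the one with the largest. Always named were Csf1r, Cx3cr1, Tmem119, P2ry12, Ptprc, Itgam, Tlr4, Il1b, Tnf, Cxcl10 and Ccl2. Predicted genes were skipped unless a count was small enough to name all. List scores are mean log2 CPM with a prior count of 2. Some genes that the rule names are not reported here.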

Additional observations from a re-analysis of the deposited data

Results flagged for a closer look

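Within the 4 CON libraries, 190 values (named genes, list scores and library measures) were checked for a library that stands apart from the other 3, and 8 were found. Chance gives about 1 in 20. Astrocyte markers had a mean log2 CPM of 5.203 in CON replicate 2, against 4.099 to 4.229 in the others. In log2 CPM, Ccnd3 stood at 6.513 in CON replicate 4 (others 6.126 to 6.142), Atp5g2 at 4.067 in CON replicate 4 (4.994 to 5.088), Tmem41b at 4.702 in CON replicate 3 (4.39 to 4.441), Fth1 at 8.758 in CON replicate 1 (8.857 to 8.874), Cd68 at 8.62 in CON replicate 1 (8.406 to 8.438), Fn1 at 0.5194 in CON replicate 1 (2.424 to 2.548) and Cd79b at 3.521 in CON replicate 4 (3.254 to 3.276).

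The library left out by its title, MIA_PLX_SAL replicate 1, held 60.37 CPM (here without TMM scaling) of Saa3, an acute-phase gene, against 0 to 1.71 CPM in the CON libraries of the PLX arm after saline. It differed from MIA_CON_LPS replicate 6 by a chi-square of 1.57 per degree of freedom, and from the nearest of its own group by 8.47. Among the 7 libraries used, the lowest value was 2.53.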

How the results depend on the processing

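The 136 calls became 254 with no filter on low counts, 69 with the length trend removed, 14 with the 15 saline libraries in one fit and 0 with all 37. Leaving out 1 library gave 80 to 208. A replicate block gave 52 calls. Same-numbered libraries correlated at -0.103, 0.00166 and -0.0879, and the other pairs at -0.0636 to 0.1. No MIA library correlated best with the CON library of its own number. With so few pairs, these values cannot settle whether a number marks anything shared. RLE factors, DESeq2, voom, a level filter, leaving out mitochondrial genes, including the library marked exclude, and no robust dispersion kept the count within 1.5 times. Without PLX, the 0 calls became 4 by DESeq2, 1 by voom, 30 with no filter and 0 to 2 without 1 library. The interaction of prenatal term and arm gave 3, 1, 13 and 0 to 3. After LPS with PLX, DESeq2 gave 19 calls, no filter 1, all 37 libraries 2, and leaving out 1 library 0 to 2. The interaction with injection stayed at 0. The respiratory chain median was 0.28 with the length trend removed, the immediate early median 0.27 to 1.01 without 1 library, and the homeostatic median 0.020 with the library marked exclude. With that library Rnf169 was higher by 0.54. The difference in genes detected, -210.2, ran from -941.5 to 162 without 1 library. The cause of these shifts was not tested. Of 43 named called genes, 43 stayed called with RLE factors, 38 with DESeq2, 32 with voom, 21 with the block, 20 with the length trend removed, 6 with the 15 saline libraries in one fit and 0 with all 37.

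With 3 against 4 libraries of 2640224 to 4538522 counts, genes under about 10 counts were not tested, and the exact permutation test of a single measure cannot go below 0.0571.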

Other observations

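Genes of the unfolded protein response, which protects the endoplasmic reticulum, were not called (0 of 18 by edgeR, 5 higher and 2 lower at an unadjusted p under 0.05, median 0.13). Manf, a secreted stress factor, stood at 36.9, 35.02, 36.6 and 41.9 CPM in CON and at 61.0, 50.5 and 42.5 in MIA (0.46, adjusted p = 0.115), and Ern1, a sensor of unfolded proteins, was lower in every MIA library (-0.43, adjusted p = 0.167). Of 10 glucocorticoid-responsive genes 0 were called, 1 higher and 1 lower at an unadjusted p under 0.05. Fkbp5, a chaperone induced by glucocorticoids, ran from 46.5 to 131 CPM in CON and from 31.0 to 52.8 in MIA (-1.20, adjusted p = 0.411), with overlap. Cholesterol synthesis (0 of 16 called, 1 lower at an unadjusted p under 0.05, median -0.04), TGF-beta signalling (0 of 12, 2 higher and 1 lower, median -0.04) and DNA methylation and chromatin enzymes (0 of 22, 1 higher and 3 lower, median -0.01) had medians near that of all genes.

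Of 12 genes that mark macrophages engrafted in the brain from blood, 1 was called, Lyz2 (0.48), with a median of 0.14. None was called without CON replicate 1 or 4, and 2 were called higher without MIA replicate 4. Without CON replicate 3 or MIA replicate 2, 1 was called higher and 1 lower. The mannose receptor gene Mrc1, also a marker of macrophages at the brain's borders, stood at 88.1, 82.8, 60.1 and 70.0 CPM in CON and at 64.6, 41.1 and 49.3 in MIA (-0.53, adjusted p = 0.151). It was called lower without CON replicate 3 (-0.63, adjusted p = 0.0347) and without MIA replicate 2 (-0.74, adjusted p = 0.0198). Summed markers of border-associated macrophages ran from 436 to 496 CPM in CON and from 353 to 447 in MIA, those of monocytes from 11.7 to 23.7 and 9.71 to 14.97, of astrocytes from 250.1 to 396 and 157 to 351, of neurons from 26.1 to 33.9 and 29.6 to 56.8, of the oligodendrocyte lineage from 80.9 to 119 and 76.2 to 132, of endothelial and mural cells from 47.5 to 66.5 and 43.1 to 51.7, and of lymphocytes, nearly all of it Ighm, from 233 to 273 and 264 to 334. The groups overlapped for all 7 sums, and with all 7 libraries no tested member of these lists was called. Most of the border-associated sum was Stab1, at 336 to 384 CPM in CON and 294 to 383 in MIA. All 5 tested border-associated genes and all 6 tested astrocyte genes had negative log2 fold changes (medians -0.47 and -0.58). Of these, 1 and 0 were lower at an unadjusted p under 0.05. The 3 tested neuron genes and 2 tested lymphocyte genes were positive, and the other lists were mixed.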
